A study of Mus musculus with 4 samples.

Results

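Chemokines are small secreted proteins that direct the migration of leukocytes and other cells through G protein-coupled receptors. In the count table of mouse embryonic fibroblasts (MEFs), the chemokine genes were taken as all protein-coding genes whose symbol begins with Ccl or Cxcl and a number, together with Cx3cl1. This rule found 44 of 55487 genes, and it used names only and no measured value. Reads were counted on 30 of them, 24 reached 10 counts over the 4 libraries and could be tested, and 14 had no read in any library.

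The RNA came from primary wild-type MEFs of C57BL/6J mouse embryos, kept for 24 h with pigment epithelium-derived factor (PEDF, 100 ng/mL, purified from mammalian cells) or without it. PEDF is a secreted glycoprotein of the serpin family that the study examined as a muscle-derived factor acting on cellular senescence. There were 2 independent experiments, each with 1 control library and 1 PEDF library, and each experiment used MEFs from different embryos. Polyadenylated RNA was sequenced, the labels and the paper differ on the passage number of the cells, and nothing gives the number of embryos pooled. All 4 libraries were wild-type cells in the same serum-containing medium, and none was labelled as a senescent culture. The share of senescent cells in the sequenced cultures is not given in the sources used here.

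The libraries held 14722848 to 18144640 counts on genes, of which 7619 to 9068 fell on the chemokine genes. At this depth, 3 counts corresponded to 0.168 to 0.203 CPM, the counts per 1000000 of the TMM-scaled library total. All 8 fibroblast markers were expressed, with summed levels of 13032 to 17342 TPM, in which the length-scaled values of a library sum to 1000000, of which Col1a1 made up the largest share. All 10 macrophage markers were also detected, with summed levels of 239 TPM in both libraries of experiment 1, 146 in the control of experiment 2 and 202 in the PEDF library of experiment 2. Summed levels of 6 endothelial markers were 6.83 to 7.24 TPM with 1 of them at 0, those of 6 epithelial markers were 72.5 to 90.8 TPM and those of 6 skeletal muscle markers were 365 to 515 TPM. The 4 lymphocyte markers summed to 0.121 to 0.524 TPM with 2 at 0, and the 4 neutrophil markers to 0.851 to 7.18 TPM with 1 at 0. In bulk RNA, fewer cells of a type and less RNA per cell cannot be told apart.

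Chemokines are grouped by the spacing of their first cysteines into CC ligands (Ccl), CXC ligands (Cxcl) and the CX3C ligand Cx3cl1. Some are made constantly by stromal cells and place cells within tissues, such as Cxcl12. Others are induced in inflammation through NF-kB or interferon signalling, and several of these, including Ccl2, Ccl7, Cxcl1 and Cxcl5, belong to the senescence-associated secretory phenotype, the set of factors that senescent cells release.

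The inducible CXC genes Cxcl1, Cxcl2 and Cxcl3 lie in the same row of genes on chromosome 5 and are textbook targets of NF-kB, so the matches to the NF-kB consensus in their promoters are shown here with those of Ccl9, Ccl20 and Cxcl10, whose levels are described further on. The stretches are from RefSeq on build GRCm38.p6, 5′ to 3′ on the strand of the gene, and capitals mark the bases covered by matches, with 10 bases in lower case on either side. Cxcl10 has 2 such blocks with lower-case bases between them.
Cxcl1, chr5:90891164-90891194, plus strand: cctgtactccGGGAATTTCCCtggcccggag
Cxcl2, chr5:90903792-90903822, plus strand: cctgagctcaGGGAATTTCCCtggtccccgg
Cxcl3, chr5:90786018-90786048, plus strand: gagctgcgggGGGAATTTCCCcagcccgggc
Ccl9, chr11:83578652-83578681, minus strand: tttgaactttGGAAAGCCCCaagtcacctt
Ccl20, chr1:83116676-83116705, plus strand: aatcaatgggGGAAAACCCCgggtgagaac
Cxcl10, chr5:92348973-92349058, minus strand: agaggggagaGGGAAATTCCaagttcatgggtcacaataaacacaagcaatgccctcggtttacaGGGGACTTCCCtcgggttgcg

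In Cxcl1, Cxcl2 and Cxcl3 the consensus fits once on each strand, so that 2 overlapping matches cover 11 bases, and these are identical in the 3 genes. The second block of Cxcl10 also holds 2 overlapping matches, so that its stretch has 3 in all. The consensus was searched on both strands from 250 bases before to 50 bases after the start of 27 chemokine genes that the promoter table held, some with more than 1 window. It was found in 8 of these genes, against 9.55% of all 27025 genes in the table, and in 8 of their 33 windows, against 8.46% of all 32851 windows. Ccl1 and Ccl27a were the other two. The core of the interferon-stimulated response element, also searched on both strands, was present in Ccl19, Cxcl10 and Cxcl14, and in 3.99% of all genes or 3.44% of all windows. The sequence TATAAA on the strand of the gene was present in 9 of the 27 genes, and in 9.77% of all genes or 8.32% of all windows. Of the genes printed, Ccl9 and Cxcl3 held it as well as the NF-kB match. A match is a string of letters and does not show that a factor was bound there, and no promoter was in the table for Ccl2, Ccl7 or Cxcl5.

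The chemokine repertoire of these MEFs was dominated by a few ligands. Levels are compared between genes in TPM. Summed over all chemokine genes, the level was 446 TPM in the control and 448 in the PEDF library of experiment 1, and 428 in the control and 438 in the PEDF library of experiment 2. The 2 most abundant genes, Cxcl14 and Cxcl12, made up 51.2% to 53.1% of this sum, and the 6 most abundant made up 87.7% to 89.9%. Mean levels were above 10 TPM for these 6 genes, between 1 and 10 TPM for 12 genes and below 1 TPM for the remaining 6 of the 24 tested genes.

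**Figure D1:**
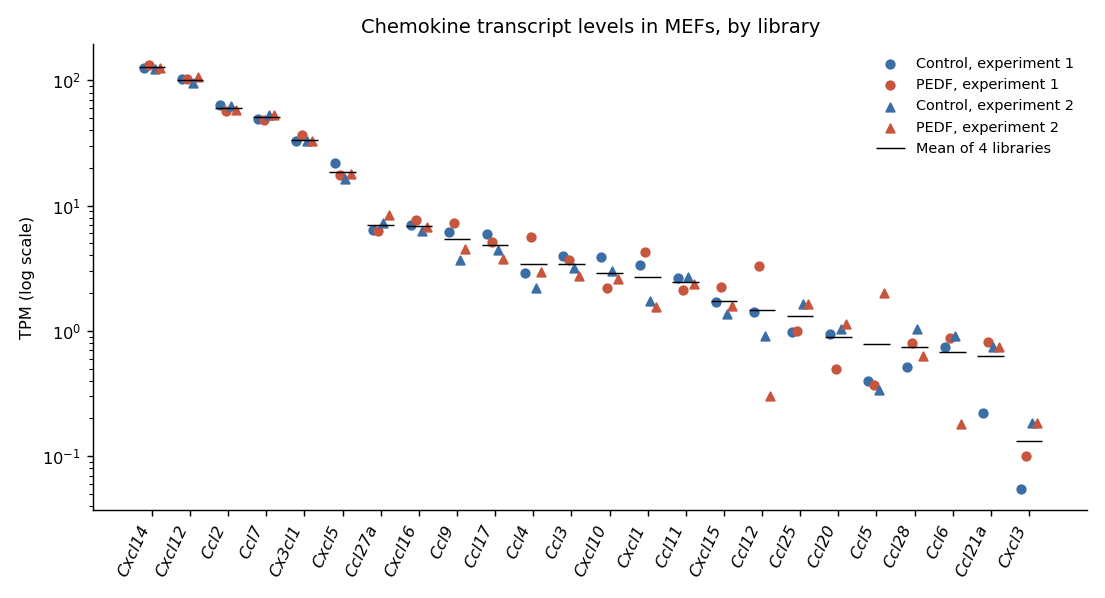
Level in each library of the 24 chemokine genes that had at least 10 counts over all libraries (TPM, log axis; circles, experiment 1; triangles, experiment 2; blue, control; red, PEDF; lines, mean of 4 libraries). The 6 genes on the left, from Cxcl14 to Cxcl5, keep their order in every library, and the points spread more widely among the genes on the right.

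Cxcl14 (ENSMUSG00000021508, chr13:56288643-56296551, minus strand), a homeostatic chemokine of epithelia and fibroblasts, stood at 127 TPM ± 3.69 (SD, n = 4), above 94.4% of the protein-coding genes with any TPM. Cxcl12 (ENSMUSG00000061353, chr6:117168535-117181367, plus strand), which retains blood-forming and other cells near stromal cells through Cxcr4, stood at 102 TPM ± 4.77. These levels depend on the gene lengths in the TPM, since Cxcl12 has 8176 annotated exon bases against 1827 for Cxcl14, and in CPM Cxcl12 held the larger share in every library.

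Ccl2 (ENSMUSG00000035385, chr11:82035571-82037453, plus strand), the main attractant of monocytes through Ccr2, stood at 60.0 TPM ± 3.28. The adjacent Ccl7 (ENSMUSG00000035373, chr11:82045712-82047525, plus strand), another Ccr2 ligand, stood at 50.9 TPM ± 2.56. Cx3cl1 or fractalkine (ENSMUSG00000031778, chr8:94772009-94782427, plus strand), a membrane-bound chemokine that can be shed, stood at 33.7 TPM ± 1.96. Cxcl5 (ENSMUSG00000029371, chr5:90759360-90761624, plus strand), a neutrophil attractant, stood at 18.5 TPM ± 2.46. The lowest library of each of these 6 genes lay above the highest library of the next gene, so that the order from Cxcl14 to Cxcl5 and on to Ccl27a was the same in all 4 libraries.

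Below Cxcl5, neighbours in the order of levels overlapped between libraries down to Ccl21a. Ccl27a, an attractant of skin-homing T cells, stood at 7.06 TPM ± 1.02, and Cxcl16, the membrane-bound ligand of Cxcr6, at 6.93 TPM ± 0.595. Ccl9, a ligand of Ccr1 in rodents, stood at 5.42 TPM ± 1.63, and the Ccr4 ligand Ccl17 at 4.82 TPM ± 0.935. Ccl4 and Ccl3, which attract macrophages and T cells, stood at 3.41 and 3.40 TPM. The Cxcr3 ligand Cxcl10, an interferon-induced chemokine, stood at 2.92 TPM, and the neutrophil attractant Cxcl1 at 2.72 TPM. Ccl11 or eotaxin had 2.46 TPM, Cxcl15 1.73 TPM, the Ccr2 ligand Ccl12 1.48 TPM and the Ccr9 ligand Ccl25 1.31 TPM. Ccl20, Ccl5, Ccl28, Ccl6 and Ccl21a had 0.900, 0.780, 0.746, 0.678 and 0.630 TPM, and Cxcl3 was the lowest tested gene with 0.131 TPM.

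Another 6 chemokine genes had 1 to 9 counts in all. In the order control and PEDF of experiment 1, then control and PEDF of experiment 2, Cxcl2 had 2, 3, 2 and 1 counts and Cxcl13 had 1, 1, 2 and 0. In the same order Ccl22 had 1, 0, 0 and 2 counts. Ccl24 had 2 counts in the PEDF library of experiment 1, Ccl8 had 2 in the control of experiment 2 and Cxcl9 had 1 there. The 14 genes without a read were Ccl1, Ccl26, Cxcl17, Ccl21d, Ccl27b, the copies of Ccl19 and Ccl21b on chromosome 4 and on unplaced scaffolds, and the copies of Ccl21a, Ccl21c and Ccl27a on such scaffolds. The copies of Ccl21a and Ccl27a on chromosome 4 had reads and are those described here. Of all 44 genes, 7 lay on such scaffolds. The Ccl19, Ccl21 and Ccl27 genes are near-identical copies, and only uniquely mapped reads were counted, so their levels are uncertain, the level of Ccl27a included. Cxcl11 was annotated as a polymorphic pseudogene in this strain and was no member; it had no read, nor had 2 pseudogenes of Ccl19.

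Most chemokine genes lie in clusters, and neighbours in a cluster differed widely in level. On chromosome 11, 6 genes lie in a row from Ccl2 to Ccl1, with 60.0 TPM for Ccl2 and 50.9 for Ccl7, then 2.46 for Ccl11, 1.48 for Ccl12, 0.159 for Ccl8 and none for Ccl1. In the second row on chromosome 11, Ccl5, Ccl9, Ccl6, Ccl3 and Ccl4 all stayed between 0.678 and 5.42 TPM. The row on chromosome 5 began with Cxcl5 at 18.5 TPM, followed by Cxcl3 at 0.131, Cxcl15 at 1.73, Cxcl1 at 2.72 and Cxcl2 at 0.169. Cxcl1 thus stood above Cxcl2 and Cxcl3, which overlapped between libraries, while the printed NF-kB match was identical in the 3 genes. On chromosome 8, Cx3cl1 at 33.7 TPM lay between Ccl22 at 0.0552 and Ccl17 at 4.82.

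**Figure D2:**
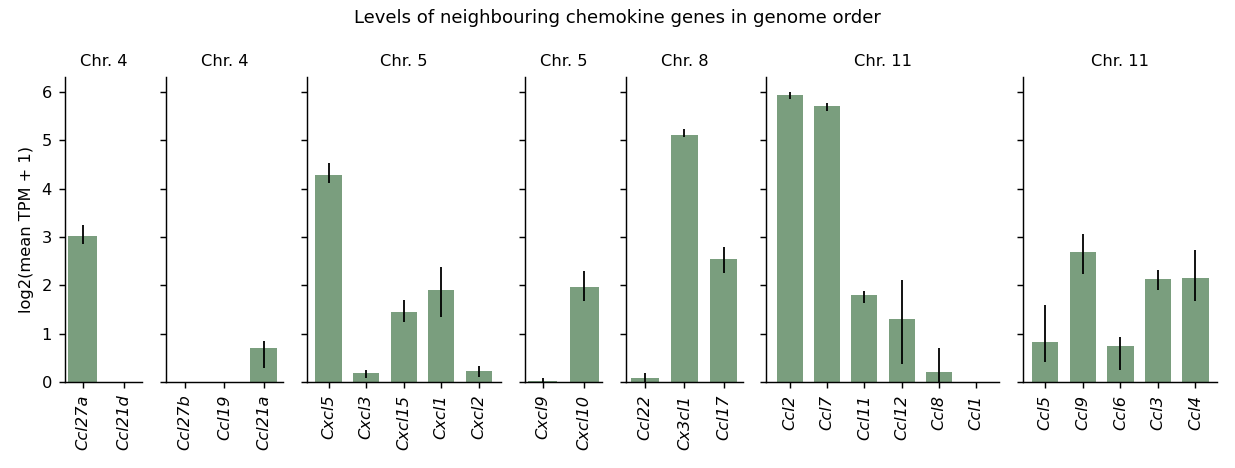
Mean level of chemokine genes in genome order for rows of genes whose starts lie within 300 kb of each other and that hold at least 1 tested gene (bars, log2(mean TPM + 1); vertical lines, lowest to highest of 4 libraries). Ccl2 and Ccl7, Cxcl5 and Cx3cl1 stand above their neighbours, and Ccl1 and Ccl8 at the end of the Ccl2 row are at or near 0.

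The comparison of PEDF with control asked whether 24 h of PEDF changed these genes in MEFs. No chemokine gene passed an adjusted p under 0.05. With edgeR's quasi-likelihood test and no covariate, 0 of 24 were called, 0 had an unadjusted p under 0.05, and the smallest adjusted p was 0.769, in Ccl5. Among all 19384 genes the same test called 1, which is 0.00516%, and 6.88% had an unadjusted p under 0.05. DESeq2, and limma on log2(TPM + 1), likewise called 0 of the 24 genes, with 0 at an unadjusted p under 0.05 in either. Over all genes with at least 10 counts, DESeq2 called 5, or 0.0594% of the 8416 to which it gave an adjusted p, and limma called 0, and 1.98% and 4.95% had an unadjusted p under 0.05. With the experiment as a replicate block, which removes the difference between the experiments, the edgeR test called 726 genes or 3.75% of all genes, and again 0 chemokine genes. Cxcl12 was then the chemokine gene with an unadjusted p under 0.05, as were 14.6% of all genes, and its adjusted p was 0.303.

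In log2 fold change, 14 chemokine genes were higher and 10 lower with PEDF, and the median was 0.09 against 0.00 over all genes tested. The sign of this median turned with 1 library, since it was -0.0217 without PEDF replicate 1 and 0.02 without Control replicate 2, and 13 of the 24 genes changed direction in at least 1 fit with a library left out. The median size of the change without its sign was 0.202 in the chemokine genes and 0.137 in all genes. The PEDF and control libraries did not overlap in CPM for 5 of the 24 genes, namely Cxcl12 and Ccl21a on the higher side and Ccl2, Cxcl10 and Ccl11 on the lower side, where 37.3% of all genes did not overlap. Ccl21a had equal counts in the control and PEDF libraries of experiment 2, so that its groups were separate only through the library scaling. The share of non-overlapping chemokine genes was thus not above that of all genes.

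The intervals were narrow for the abundant genes and wide for the rare ones. The 95% interval of the PEDF to control ratio lay within 1.5-fold in either direction for 8 genes, Cxcl14, Cxcl12, Ccl2, Ccl7, Cx3cl1, Cxcl5, Ccl27a and Cxcl16. With Ccl9 and Ccl25, 10 genes lay within 2-fold, and the intervals of the other 14 reached beyond it. Over all genes, 56.0% had an interval within 1.5-fold and 69.9% within 2-fold. With the replicate block, 12 chemokine genes lay within 2-fold, the added genes being Cxcl1 (0.672 to 1.86) and Ccl28 (0.516 to 1.74), against 71.8% of all genes.

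Within each experiment there was 1 library per condition, so the ratio of PEDF to control there carries an exact binomial 95% interval for counting error only. In experiment 1 this interval excluded a ratio of 1 for 4 of the 24 genes, against 20.1% of all genes, and in experiment 2 for 3, against 25.5%. No gene did so in both experiments. The ratio pointed the same way in both experiments for 16 genes, upwards in 10 and downwards in 6, and this is 66.7% of the chemokine genes against 58.9% of all genes. These include genes with equal counts in 1 experiment, namely Ccl21a and Cxcl3 in experiment 2 and Ccl3 in experiment 1. Their direction there rested on the library scaling alone.

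**Figure D3:**
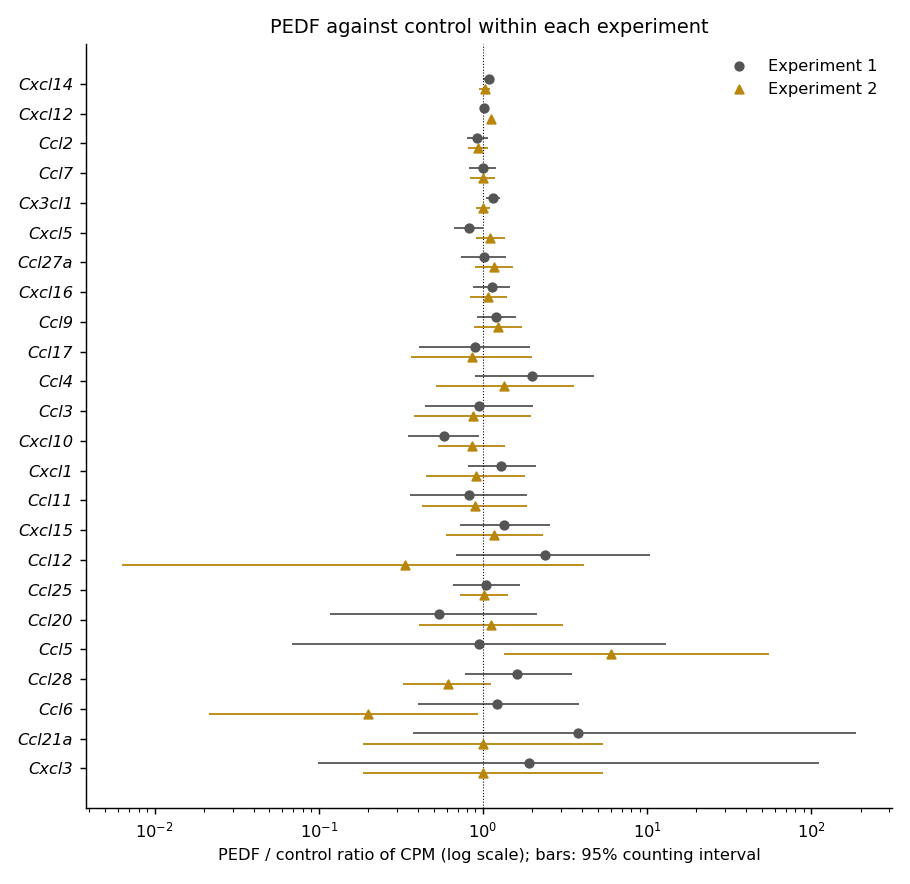
Ratio of PEDF to control CPM for the 24 tested chemokine genes in experiment 1 (grey circles) and experiment 2 (yellow triangles), ordered by mean TPM from top to bottom (log axis; bars, exact binomial 95% interval for counting error). The ratios of the 8 genes at the top lie between 0.817 and 1.17, and the intervals widen towards the rare genes at the bottom.

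Of the homeostatic ligands, Cxcl12 had 300 CPM in the control and 304 in the PEDF library of experiment 1, and 268 and 302 in experiment 2. Both PEDF libraries lay above both controls, but the 2 PEDF libraries and the control of experiment 1 were close together, and the control of experiment 2 stood apart below them. The ratio was 1.01 (95% counting interval 0.973 to 1.06) in experiment 1 and 1.12 (1.08 to 1.17) in experiment 2. In edgeR's quasi-likelihood test the log2 fold change of Cxcl12 was 0.09 ± 0.07 (SE, adjusted p = 0.805), and 0.10 ± 0.05 with the replicate block (adjusted p = 0.303). Shorter genes read higher with PEDF in both experiments, with slopes of -0.0402 and -0.0560 in log2 ratio per doubling of exon length, and Cxcl12 is a long gene. With the replicate block and this length trend removed, the log2 fold change of Cxcl12 was 0.15 and its adjusted p 0.0513, in a fit that called 2.23% of all genes and 0 chemokine genes.

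Cxcl14 had 81.2 and 88.2 CPM in control and PEDF of experiment 1, and 78.3 and 80.3 in experiment 2. Its groups overlapped, and its log2 fold change of 0.08 ± 0.08 (edgeR's quasi-likelihood test, adjusted p = 0.872) became -0.0025 with the replicate block and the length trend removed. The fitted ratio of 1.06 had a 95% interval of 0.940 to 1.19.

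None of the Ccr2 ligands, which attract monocytes, passed the test. Ccl2 had 25.5 and 23.5 CPM in control and PEDF of experiment 1, and 24.5 and 22.8 in experiment 2. Both PEDF libraries lay below both controls, with ratios of 0.922 and 0.930, and both counting intervals included 1. The log2 fold change of Ccl2 was -0.11 ± 0.11 (edgeR's quasi-likelihood test, adjusted p = 0.862), which bounds the ratio between 0.792 and 1.08. With the replicate block and the length trend removed it was -0.20, with an adjusted p of 0.396. Ccl7 had 14.1 and 14.0 CPM in experiment 1 and 14.7 and 14.7 in experiment 2, and its ratios were 0.995 and 0.997. Control and PEDF were thus nearly equal within each experiment, and the fitted interval of the Ccl7 ratio was 0.819 to 1.21. Ccl12 was rare and uneven, with 4 and 10 counts in experiment 1 and 3 and 1 in experiment 2.

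Cx3cl1 had 45.7 and 52.5 CPM in experiment 1, a ratio of 1.15 with a counting interval of 1.04 to 1.27. In experiment 2 it had 44.6 and 44.4 CPM, a ratio of 0.997 with an interval of 0.903 to 1.10. The higher PEDF value of Cx3cl1 therefore came from 1 library, and its log2 fold change was 0.10 ± 0.09 (edgeR's quasi-likelihood test, adjusted p = 0.847). Cxcl16, the other membrane-bound chemokine, had 7.52 and 8.49 CPM in experiment 1 and 6.56 and 7.07 in experiment 2. Its exons overlap Zmynd15 on the opposite strand over 552 bases, 18.3% of its exon length, and how reads there were assigned is not given in the sources used here.

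The neutrophil attractants gave no common direction. Cxcl5 had 14.6 and 11.9 CPM in experiment 1 and 10.5 and 11.7 in experiment 2. It was lower with PEDF in experiment 1, with a ratio of 0.817, and higher in experiment 2, with a ratio of 1.11. The fitted interval of its ratio was 0.740 to 1.20. Cxcl1 had 2.24 and 2.89 CPM in experiment 1 and 1.12 and 1.01 in experiment 2, again with opposite directions. Cxcl15 had 19 and 27 counts in experiment 1 and 18 and 21 in experiment 2, and Cxcl3 had 1, 2, 4 and 4. Cxcl1 and Cxcl3 carry the same NF-kB match printed above, and neither passed the test for PEDF.

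Cxcl10 read lower with PEDF in both experiments, without passing the test. It had 46 and 28 counts in control and PEDF of experiment 1 and 42 and 36 in experiment 2. Both PEDF libraries lay below both controls, with ratios of 0.578 (counting interval 0.348 to 0.944) and 0.858 (0.534 to 1.37). The log2 fold change of Cxcl10 was -0.51 ± 0.32 (edgeR's quasi-likelihood test, adjusted p = 0.774), and the interval of its fitted ratio was 0.439 to 1.13. Of 22 interferon targets outside the chemokines, edgeR called 0 without the replicate block, with 0 at an unadjusted p under 0.05 against 6.88% of all genes. With the block it called 0, with 2 at an unadjusted p under 0.05 against 14.6% of all genes. DESeq2 and limma called 0 of them, with 0 and 1 at an unadjusted p under 0.05 against 1.98% and 4.95% of all genes. The median log2 fold change of these targets was 0.07 in edgeR without the block. Exons of Cxcl10 share 133 bases with Art3 on the opposite strand, which had 9 counts or fewer in each library.

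Ccl9, Ccl6, Ccl3, Ccl4 and Ccl5 are made largely by macrophages and other leukocytes. Ccl9 had 6.71 and 8.10 CPM in experiment 1 and 3.87 and 4.77 in experiment 2. Its ratios of 1.21 and 1.23 were similar in the 2 experiments, while the level differed more between the experiments than with PEDF. Ccl4 had 10 and 21 counts in experiment 1 and 9 and 12 in experiment 2. Ccl3 had 16 and 16, then 15 and 13 counts. Ccl4 was thus higher with PEDF in both experiments and Ccl3, its neighbour, level or slightly lower, with counting intervals that included 1 for both genes in both experiments.

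Ccl5 gave the largest fitted change and rested on 1 library. It had 2 counts in the control and in the PEDF library of experiment 1, 2 in the control of experiment 2 and 12 in the PEDF library of experiment 2. The log2 fold change of 1.68 ± 1.05 did not pass the test (edgeR's quasi-likelihood test, adjusted p = 0.769). Ccl6 had 7 and 9 counts in experiment 1 and 10 and 2 in experiment 2. The PEDF library of experiment 2 was thus the highest library for Ccl5 and the lowest for Ccl6, Ccl12 and the neutrophil markers.

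The remaining ligands attract lymphocytes, dendritic cells or eosinophils. Ccl17 had 16 and 15 counts in experiment 1 and 14 and 12 in experiment 2, and Ccl11 had 15 and 13, then 18 and 16. Ccl27a had 5.35 and 5.40 CPM in experiment 1 and 5.94 and 6.96 in experiment 2. Ccl25, a gut and thymus chemokine, had 2.57 and 2.70 CPM in experiment 1 and 4.20 and 4.26 in experiment 2. The 2 experiments of Ccl25 did not overlap, and control and PEDF were close within each. Exons of Ccl25 share 204 bases with Elavl1 on the opposite strand, which had 1493 to 1836 counts per library, and those of Ccl27a share 8 bases with Il11ra1, which had 1002 to 1363. Ccl28 had 13 and 22, then 31 and 19 counts, Ccl20 had 7 and 4, then 9 and 10, and Ccl21a had 1 and 4, then 4 and 4. The fitted intervals of these 3 genes reached beyond 2-fold, except that of Ccl28 with the replicate block.

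**Figure D4:**
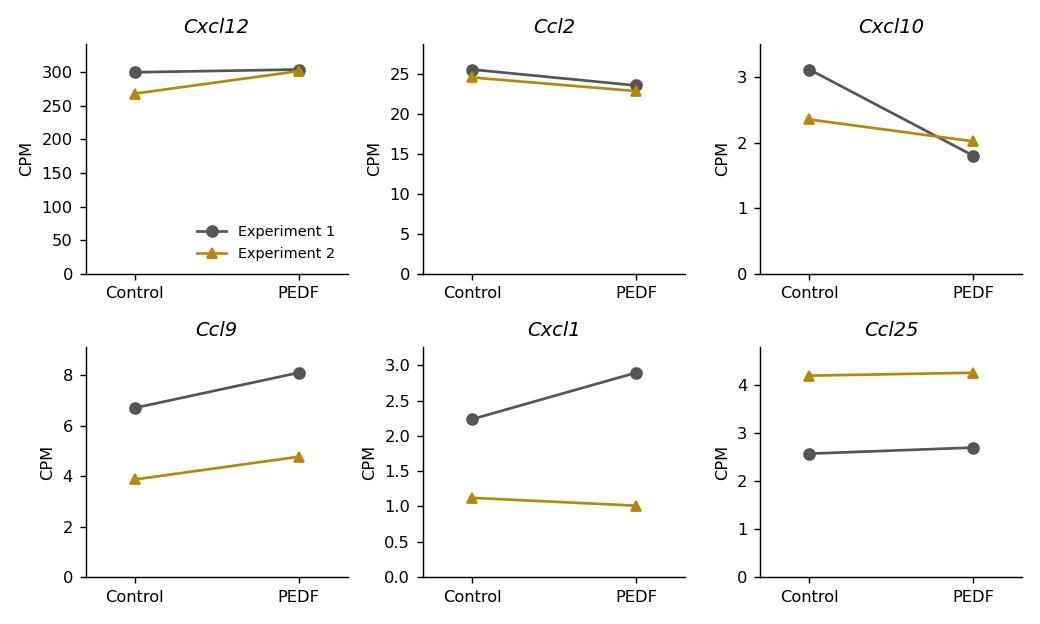
CPM of 6 chemokine genes in control and PEDF libraries of experiment 1 (grey circles) and experiment 2 (yellow triangles), with lines joining the libraries of an experiment and axes from 0. The lines of Cxcl12, Ccl2 and Cxcl10 lie close together or cross, whereas for Ccl9, Cxcl1 and Ccl25 the 2 experiments are separate and the lines do not meet.

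The receptors of these ligands were sparsely expressed. Of 24 receptor genes, 12 reached 10 counts and 6 had no read. Ackr3, the atypical receptor that takes up Cxcl12, was the most abundant with 41.8 TPM, and had 677 and 820 counts in control and PEDF of experiment 1 and 881 and 884 in experiment 2. Cxcr4, the signalling receptor of Cxcl12, had 3.95 TPM, and Cx3cr1, the receptor of Cx3cl1 and itself a macrophage marker, had 5.34 TPM. The receptors of the other abundant ligands were rarer, since Ccr2 had 7 to 9 counts per library, Cxcr2, which binds Cxcl1 and Cxcl5, had 1 count in all, and Cxcr1 had none. Between PEDF and control, 0 of the 12 receptors were called in edgeR's quasi-likelihood test with or without the replicate block. In either fit 1 of the 12 had an unadjusted p under 0.05, where 6.88% of all genes did without the block and 14.6% with it. DESeq2 and limma called 0 receptors, with 0 and 1 at an unadjusted p under 0.05, against 1.98% and 4.95% of all genes. The 1 gene was Ccrl2 in each of these fits, an atypical receptor that binds chemerin, which is named after its values were seen. It had 2 and 10 counts in experiment 1 and 1 and 7 in experiment 2, and its log2 fold change was 2.38 ± 0.995 (adjusted p = 0.696, and 0.279 with the replicate block). The log2 fold change of Ackr3 was 0.10 ± 0.08 (adjusted p = 0.824).

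Another 3 chemokines carry other symbols. Pf4 had 34 and 41 counts in experiment 1 and 24 and 21 in experiment 2, Ppbp had 29 and 33, then 31 and 32, and Xcl1 had none. For PEDF, 0 of the 2 tested genes were called and 0 had an unadjusted p under 0.05 in edgeR, DESeq2 or limma. Of 22 NF-kB targets outside the chemokines, 0 were called in edgeR without a block, in DESeq2 or in limma. Each of these fits had 1 at an unadjusted p under 0.05, against 6.88%, 1.98% and 4.95% of all genes. With the replicate block 1 was called, Nfkbiz, an NF-kB inhibitor family member, with 325 and 261 counts in experiment 1 and 462 and 348 in experiment 2 (log2 fold change -0.40 ± 0.11, edgeR's quasi-likelihood test, adjusted p = 0.011). This is 1 of 22, where 3.75% of all genes were called, and 3 of the 22 had an unadjusted p under 0.05 against 14.6% of all genes. DESeq2 with the replicate block called 0 of the 22, with 0 at an unadjusted p under 0.05 against 2.24% of all genes. That fit gave an adjusted p to 1310 genes, of which it called 9.01%. The most abundant NF-kB targets Csf1, Ptgs2 and Nfkbia, and the most abundant interferon targets Bst2, Isg15 and Irf1, were not called with PEDF in either fit.

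The comparison of experiment 2 with experiment 1 gives the difference between the 2 experiments, beside which the PEDF comparison stands. The experiments used MEFs from different embryos, with 1 preparation each, so embryos and other differences between the experiments cannot be told apart. Ccl9 and Cxcl1 were lower in experiment 2 when treatment was a block in the fit, and for most chemokine genes the libraries of the 2 experiments did not overlap. Without a covariate, 0 of the 24 genes were called in edgeR's quasi-likelihood test, 3 had an unadjusted p under 0.05 (Ccl9, Cxcl1 and Ccl25) against 7.67% of all genes, and the test called 0.0567% of all genes. DESeq2 called 0 of the 24, with 2 at an unadjusted p under 0.05 against 2.4% of all genes. Likewise limma called 0, with 4 at an unadjusted p under 0.05 against 7.24% of all genes. Over all genes DESeq2 called 9, or 0.0464%, and limma 0. With treatment as a block edgeR called 2, Ccl9 and Cxcl1, where the test called 870 or 4.49% of all genes. With the length trend also removed Ccl9 was called (adjusted p = 0.00794) and Cxcl1 was not (adjusted p = 0.0521), where 3.21% of all genes were called.

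Ccl9 (ENSMUSG00000019122, chr11:83572919-83578636, minus strand) had 7.40 CPM ± 0.988 (SD, n = 2) in experiment 1 and 4.32 ± 0.638 in experiment 2. The SDs in this paragraph are over the control and the PEDF library of 1 preparation. They include the treatment difference and are not a spread of replicate preparations. The log2 fold change of Ccl9 was -0.78 ± 0.20 (SE, edgeR with treatment as a block, adjusted p = 0.00384). All counts of Ccl9 in experiment 1 (99 and 126) were above those in experiment 2 (69 and 85), although the libraries of experiment 2 were deeper. Cxcl1 (ENSMUSG00000029380, chr5:90891241-90893115, plus strand) had 2.56 CPM ± 0.466 in experiment 1 and 1.07 ± 0.0784 in experiment 2, a log2 fold change of -1.26 ± 0.38 (treatment as a block, adjusted p = 0.0259). Ccl25 was the gene with the clearest difference in the other direction, with a log2 fold change of 0.68 ± 0.26 (treatment as a block, adjusted p = 0.113), which did not pass the test. Ccl9 and Cxcl1 both have an NF-kB match in their promoters, and so do Cxcl3, Ccl20, Cxcl10 and Ccl27a, which were tested and not called.

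**Figure D5:**
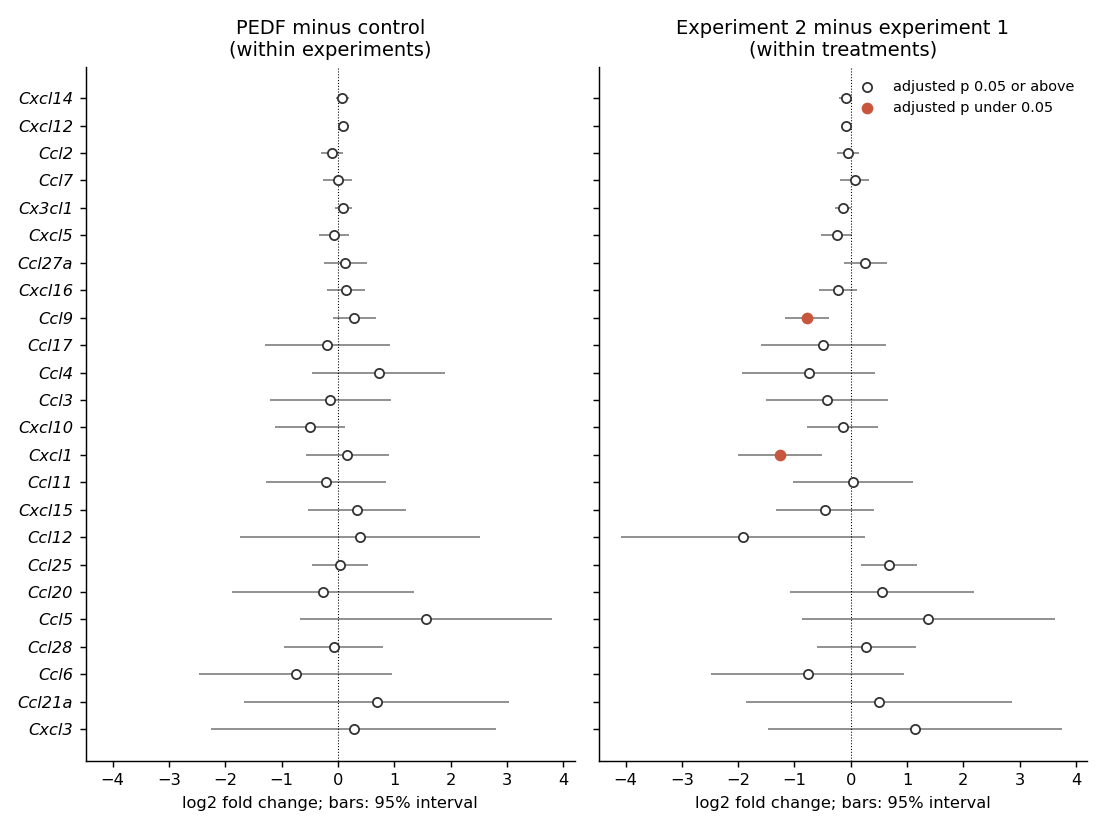
Log2 fold change of the 24 tested chemokine genes for PEDF minus control with the experiment as a block (left) and for experiment 2 minus experiment 1 with treatment as a block (right), with 95% intervals (edgeR; filled red, adjusted p under 0.05). On the left no point is filled, and on the right Ccl9 at -0.78 and Cxcl1 at -1.26 are filled.

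In CPM the 2 libraries of experiment 2 did not overlap those of experiment 1 for 16 of the 24 genes, against 37.5% of all genes, and for 5 of 24 in the PEDF comparison. Of the 16, 11 were lower in experiment 2 (Cxcl14, Cx3cl1, Cxcl5, Cxcl16, Ccl9, Ccl17, Ccl4, Ccl3, Cxcl1, Cxcl15 and Ccl12) and 5 were higher (Ccl7, Ccl27a, Ccl25, Ccl20 and Cxcl3). The median size of the log2 difference was 0.428 in the chemokine genes and 0.135 in all genes. The part of counting error in this was not tested. The abundant genes differed little, with ratios of experiment 2 to experiment 1 of 0.936 for Cxcl14, 0.943 for Cxcl12, 0.966 for Ccl2, 1.05 for Ccl7 and 0.906 for Cx3cl1, and fitted 95% intervals within 1.5-fold for these 5 and for Cxcl5.

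All 10 macrophage markers had a lower mean CPM in experiment 2, as had 50% of all genes, and none was at 0. For 6 of them both libraries of experiment 2 lay below both of experiment 1, against 18.4% of all genes, and with treatment as a block 1 of the 10 was called, Lyz2. Lyz2 had 893 and 973 counts in control and PEDF of experiment 1 and 469 and 822 in experiment 2, a log2 fold change of -0.79 ± 0.07 in that fit (adjusted p = 6.07e-23). Without the block edgeR called 0 of the 10 markers between the experiments, and the adjusted p of Lyz2 was 0.730. With the replicate block Lyz2 was also called for PEDF (log2 fold change 0.39, adjusted p = 2.01e-05), where its 2 control libraries were far apart. In the same fit, which called 3.75% of all genes, the muscle markers Des and Actc1 and the fibroblast marker Dcn were called higher with PEDF. The fibroblast markers Col1a1, Col1a2 and Pdgfrb were called lower. Without the block none of these markers nor Lyz2 was called for PEDF, and with the length trend also removed Des and Col1a2 were no longer called. Ccl9 had its lowest level in the same library as Lyz2, the control of experiment 2, whereas Cxcl1 and Ccl12 had theirs in the PEDF library of experiment 2. The part of macrophage content in these differences was not tested. Markers of other cell types were also called between the experiments with treatment as a block, and none of them was called without it. Of the epithelial markers Krt8 was lower in experiment 2 (log2 fold change -0.69, adjusted p = 4.96e-07), and of the muscle markers Actc1 was higher (0.34, adjusted p = 1.99e-08). Of the fibroblast markers Col1a1 (0.23) and Pdgfrb (0.25) were higher and Dcn (-0.32) was lower. Their part in the chemokine differences was not tested either. Of the 22 NF-kB targets, edgeR called 2 with treatment as a block, namely Csf1 and Ptgs2, where 4.49% of all genes were called. Both were higher in experiment 2 (adjusted p = 0.000192 and 0.00277). Without the block edgeR called 0 of the 22, and DESeq2 and limma also called 0. These fits had 3, 1 and 1 of them at an unadjusted p under 0.05, against 7.67%, 2.4% and 7.24% of all genes. The median log2 fold change of this list was -0.01. With treatment as a block in edgeR, Tnip1 (-0.26, adjusted p = 0.0746) and Nfkbia (-0.21, adjusted p = 0.258) had values in the direction of Cxcl1 and Ccl9. Nfkbiz (0.23, adjusted p = 0.285) went the other way, as did Csf1 and Ptgs2. Of the 12 receptors edgeR called 0 without the block and 0 with it, with 0 and 1 at an unadjusted p under 0.05 against 7.67% and 14.8% of all genes. DESeq2 and limma called 0 receptors, with 0 at an unadjusted p under 0.05 in either, against 2.4% and 7.24% of all genes.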

How the data were processed

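MEFs were sequenced as 2 control and 2 PEDF libraries, 1 of each per experiment. Per the submitters' processing notes, reads were handled with FastQC 0.11.7, Trimmomatic 0.38, HISAT2 2.1.0, SAMtools 1.9 and featureCounts 1.6.3 on mm10. The authors deposited raw counts of uniquely mapped reads per gene, and separately TPM values. Annotation and strand setting are not given in the sources used here, and 54870 of 55487 genes had the coordinates of GENCODE M21, which gave exon lengths. CPM are counts per 1000000 of the TMM-scaled library total.

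Counts were tested in R 4.3.3 with edgeR 4.0.16 (TMM factors, quasi-likelihood F test, Benjamini-Hochberg adjustment) over all 19384 genes with at least 10 counts, at an adjusted p under 0.05, without a covariate, as the study names none. Alternatives were the replicate block, the block with a spline on gene length (5 degrees of freedom) as an offset, DESeq2 1.42.0, RLE factors, no filter, filterByExpr, limma 3.58.1 on log2(TPM + 1), and each library left out. The design text says that embryos differed between the experiments, which pairs the libraries by experiment. Over 10722 genes the experiment difference in control correlated with that in PEDF libraries (r = 0.423, across genes). Without a block, p-values for PEDF rest on the spread between the 2 experiments, and those for experiment 2 against experiment 1 on the spread between control and PEDF libraries of 1 experiment. With the block, both rest on the residual spread of 4 libraries.

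On simulated data for PEDF against control, with 200 of 19384 genes changed 4-fold, edgeR called 148 of them and 0 unchanged genes, and 174 and 6 with the block. The simulation gave all genes the same dispersion and held no length trend, and its changes were far above the median size among the chemokine genes. It therefore does not give the power to find changes of the size seen in the chemokine genes.

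Every member with at least 10 counts was named with its values; genes of the receptor, other-symbol, NF-kB and interferon lists were named when called, among their 3 most abundant, or a receptor of a described member. The members, lists, tests and alternatives were chosen with earlier results of these data known. The lists were chemokine receptors, chemokines with other symbols, NF-kB and interferon targets, and markers of 7 cell types. Marker genes and Tnip1 were named after their values were seen.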

Additional observations from a re-analysis of the deposited data

How the results depend on the processing

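For PEDF against control, 23 of 24 chemokine genes kept their direction in each of the 8 alternatives with all libraries that tested them, of which filterByExpr kept 18 genes, and none was called in any. Cxcl14 turned to -0.0025 with the replicate block and the length trend removed. The replicate block gave 0 chemokine genes and 0 receptors called, and it changed no call among them, while over all genes the calls went from 1 to 726, with Nfkbiz and Lyz2 among those gained. The median log2 fold change of 0.09 ranged from -0.0217 without PEDF replicate 1 to 0.0994 without PEDF replicate 2, and was 0.02 without Control replicate 2.

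With 1 library left out, 13 genes changed direction at least once, and the counts called stayed at 0. Their log2 fold changes then ran as follows, from lowest to highest, for Ccl3 -0.39 to 0.11, Ccl6 -2.14 to 0.15, Ccl9 -0.13 to 0.72, Ccl25 -0.34 to 0.44, Ccl20 -0.91 to 0.19, Cxcl5 -0.31 to 0.16, Cxcl3 -0.31 in the 1 such fit that kept it, Cxcl1 -0.71 to 0.81, Cx3cl1 -0.02 to 0.22, Ccl17 -0.46 to 0.0578, Ccl7 -0.04 to 0.0271, Ccl27a -0.0655 to 0.30, Ccl28 -0.49 to 0.48.

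For experiment 2 against experiment 1, the number of chemokine genes called was 0 without a block, 2 with treatment as a block, 1 with the length trend also removed, and 0 to 1 with 1 library left out. The 1 was Ccl9, without PEDF replicate 2 (adjusted p = 0.0226). Ccl2 turned from -0.05 to 0.0328 with the length trend removed and to 0.0042 in limma on log2(TPM + 1). With 1 library left out, 6 genes changed direction, with log2 fold changes, from lowest to highest, for Ccl6 -2.16 to 0.0836, Ccl11 -0.0917 to 0.19, Cxcl10 -0.51 to 0.28, Ccl2 -0.11 to 0.0097, Ccl28 -0.11 to 0.67, Ccl21a -0.19 in the 1 such fit that kept it.

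The cause of these changes was not tested. Intervals reached beyond 2-fold for 14 of 24 genes for PEDF against control without the block.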
